A study of Mus musculus with 12 samples.

Results

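Both Grn-null mouse lines were pooled and set against wild type. Of the 12 cortex libraries of the study, 8 came from Grn-null mice and 4 from wild-type mice. Membership followed the labelled genotype alone. The wild-type group (WT) was Grn+/+. The knockout group (KO) was Grn-/-. The humanized mutant group (MUT) was Grn-/- and also carried the allele labelled GRNmEx5. By label, mouse Grn was missing in both null groups and the human allele was present in MUT only. Human GRN was not among the genes counted, so its transcript was not measured, and neither was progranulin protein. Each group had 4 libraries of total RNA from cortex. The WT animals were 287 to 375 days old, the KO animals 282 to 308 days and the MUT animals 272 to 309 days. The comparison asks which genes shifted in the same direction in both null lines, whatever else separates them.

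Progranulin is a secreted glycoprotein that is taken up and delivered to lysosomes, where it is cut into granulins. In the brain it is made by microglia and by neurons, and its loss is known for lysosomal storage, activated microglia with raised complement, and, in people with 1 inactive copy, frontotemporal dementia. Microglia that meet damaged tissue switch from a resting program to one of phagocytosis and lysosomal proteases, driven in part by the receptor TREM2 and its adaptor TYROBP.

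The libraries held 16381221 to 20782195 counts each, and 15298 genes had enough reads to be tested. Genotype was not the only thing that set libraries apart. WT replicates 2, 3 and 4 were 375 days old and lay away from all other libraries along principal component 1 (28.7% of the variance). Markers of striatal projection neurons summed to 1818, 2696 and 4423 CPM (read counts scaled to a common library size) in those 3 libraries, to 1011 CPM in WT replicate 1 (287 days) and to 986 to 1235 CPM in the 8 null libraries. In WT replicate 4, KO replicate 3 and MUT replicate 1, markers of choroid plexus were high. Sex-linked transcripts went against the labelled sex in 12 of 12 libraries, which leaves the split of the libraries by sex as labelled. WT replicate 1 was the only WT library labelled female, so within WT labelled sex and age split the libraries in the same way. Genotype is therefore confounded with age and striatal content in 3 of the 4 WT libraries, and these cannot be told apart there. For each gene that moved alike in both null lines (defined below), the position of WT replicate 1 is given as a measurement that bears on this. It is not given for every other gene named.

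Grn itself was low in all 8 null libraries. Grn (Entrez 14824, mm10 chromosome 11, 102430322 to 102436809, plus strand) measured 57.2, 59.9, 57.6 and 57.0 CPM in WT. The KO libraries measured 12.9, 10.8, 13.4 and 14.0 CPM and the MUT libraries 11.5, 13.8, 13.3 and 15.3 CPM. No null library came near a WT library, and the KO and MUT values overlapped. The mean was 58.0 ± 1.35 CPM in WT (SD, n = 4) and 13.1 ± 1.42 CPM over the null libraries (SD, n = 8), or 22.6% of WT. The pooled log2 fold change was -2.17 (SE 0.07, edgeR adjusted p = 7.378e-09). The reads left on Grn in the null libraries were counted over the whole gene, and which part of it is deleted is not given in the sources used here.

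The pooled comparison called 23 genes at an adjusted p under 0.05, which is 0.15% of the genes tested. Of these, 22 moved alike, which here means the same sign in KO and in MUT with an unadjusted p under 0.05 in each line. In the pooled comparison, 7.24% of all genes were higher and 9.31% lower at an unadjusted p under 0.05. Among the 22, 7 rose (0.0458% of the genes tested were called higher; Lyz2, Wdfy1, C4b, Tyrobp, Acbd4, Ctss and Arhgap27os3) and 15 fell (with 0.105% called lower; Grn, Pappa2, Htr2a, St6gal2, Cnr1, Znrf3, Aff3, Coa3, Slc2a13, Ptprf, Col19a1, Tmem56, Hmgcs1, Pdpk1 and Etl4). Most changes were small: 13 of the 22 were under 1.5-fold. In all 22 the 8 null libraries lay apart from the 4 WT libraries, a pattern that 3.01% of all tested genes showed. Apart from Grn, adjusted p ran from 0.02758 for Wdfy1 to 0.04875 for Cnr1, and the nearest gene outside the threshold, Pcdh7, had an adjusted p of 0.05852. KO and MUT share the WT libraries, so the agreement of their signs is a description of these libraries. The number that moved alike went to 1665 when WT replicate 1 was left out, to 14 without WT replicate 3, to 11 without KO replicate 3, to 10 without KO replicate 4, and to 1 to 3 without each of the other 8 libraries.

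**Figure D1:**
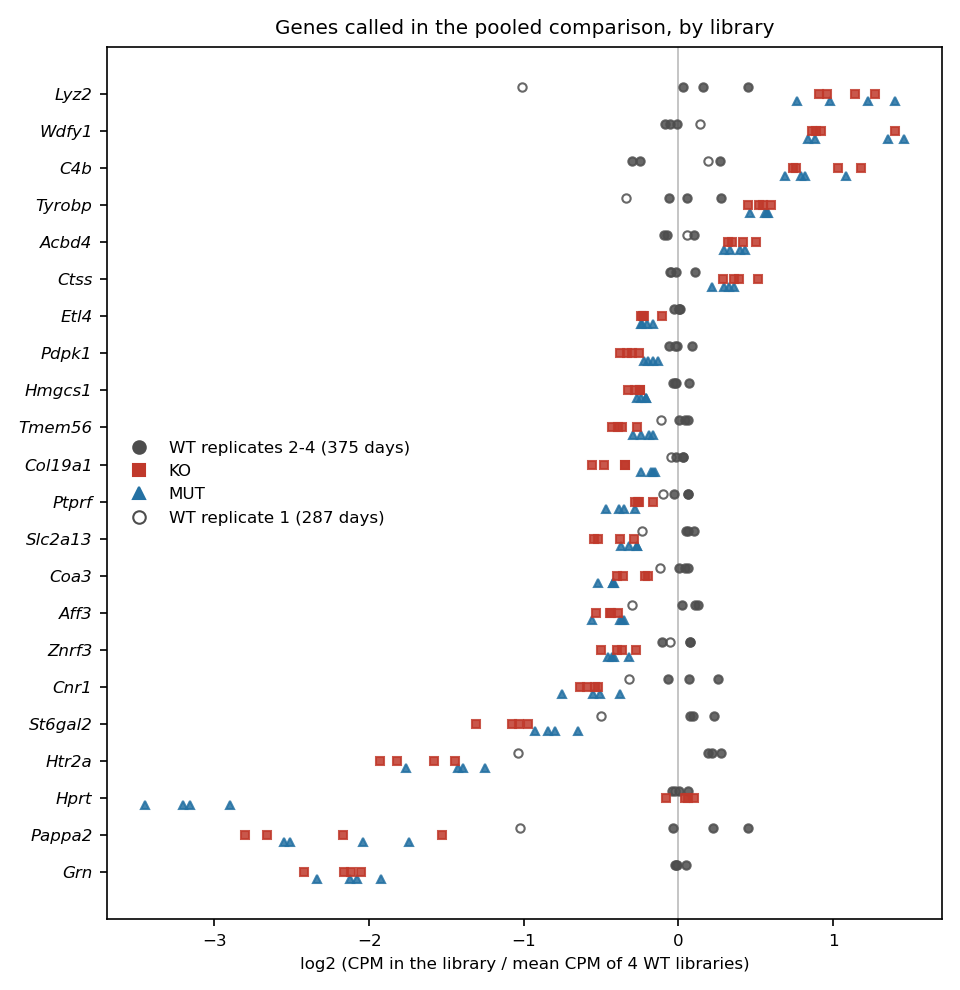
Level of 22 of the 23 called genes in each library, as the log2 ratio of its CPM to the mean of the 4 WT libraries (Arhgap27os3 is left out because 3 WT libraries had no read). Circles are WT, squares KO and triangles MUT; apart from Hprt, whose KO values overlap WT, all 8 null points lie to 1 side of all 4 WT points, and the open circle of WT replicate 1 is often the WT point nearest to them.

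Of the 7 genes that rose, 4 belong to microglia or complement. Lyz2 (lysozyme M, a bactericidal enzyme of macrophages and microglia) measured 2.20, 4.95, 6.08 and 4.54 CPM in WT, 10.7, 8.65, 9.81 and 8.32 CPM in KO, and 11.7, 7.57, 10.4 and 8.75 CPM in MUT. Every null library was higher than every WT library, and WT replicate 1 was the lowest of all, so it lay farthest from the null libraries. The pooled log2 fold change was 1.25 (SE 0.21, edgeR adjusted p = 0.04774). Lyz2 has a near-identical copy, Lyz1, and reads shared between them may have been split or dropped in counting. C4b (complement component 4, which is deposited on surfaces marked for removal) measured 33.8, 24.0, 25.0 and 35.7 CPM in WT against 60.5, 50.2, 67.3 and 49.6 CPM in KO and 52.4, 51.4, 62.9 and 47.8 CPM in MUT. All null libraries lay above all WT libraries, and the pooled log2 fold change was 0.90 (SE 0.14, adjusted p = 0.04875). The copy C4a shares most of its sequence with C4b, which makes this value uncertain in the same way.

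Tyrobp (the signalling adaptor of TREM2) measured 6.16, 8.07, 7.46 and 9.43 CPM in WT. It measured 11.8, 10.6, 11.4 and 11.2 CPM in KO and 11.5, 10.7, 11.6 and 11.6 CPM in MUT. The 8 null libraries lay within a narrow band above a wider WT group, and the pooled log2 fold change was 0.59 (SE 0.10, edgeR adjusted p = 0.04774). Ctss (cathepsin S, a lysosomal cysteine protease of microglia and other antigen-presenting cells) measured 49.0, 50.3, 49.2 and 54.7 CPM in WT, 66.6, 62.0, 72.7 and 65.2 CPM in KO, and 62.2, 63.9, 65.2 and 59.0 CPM in MUT. The groups did not overlap, and the log2 fold change was 0.35 (SE 0.05, adjusted p = 0.04681). In none of Lyz2, Tyrobp, Ctss and C4b was the 287-day WT library the one nearest to the null libraries, and each kept its sign when animals over 310 days were left out: 2.06 for Lyz2, 0.87 for Tyrobp, 0.41 for Ctss and 0.67 for C4b on the log2 scale. With a single WT library in that comparison, assumed to vary like the others, none of these 4 passed the threshold (adjusted p 0.0607, 0.1315, 0.5745 and 0.6311). With sex and age in the model Lyz2 stayed called (2.16, adjusted p = 0.003249), and with the striatal marker level Tyrobp did (0.78, adjusted p = 0.04361). WT replicate 1 had the lowest of the 12 list levels for resting microglia (-0.11), disease-associated microglia (-0.23), lysosome (-0.11) and complement (-0.29). Each level is the mean log2 CPM of the list members, centred on the 12 libraries. The values under 310 days rest on that WT library alone, and those with age in the model lean on it. A genotype effect and its low level cannot be told apart there.

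The wider microglial lists moved less. Of 28 tested genes of the disease-associated microglial program, 3 were called higher (Ctss, Tyrobp and Lyz2) and none lower. A pooled log2 fold change above 0 was seen in 24, and the median of the list was 0.20 (0.21 in KO, 0.23 in MUT). Over all tested genes 0.0458% were called higher, 7850 of 15298 were above 0 and the median was 0.004. In 6 of the 28 (21.4%) all 8 null libraries exceeded all WT libraries, against 1.34% of all genes. The others among those 6 were Cd68 (a lysosomal glycoprotein of phagocytes) with 0.55 (adjusted p = 0.0809), Cd63 (a tetraspanin of late endosomes) with 0.45 (adjusted p = 0.135) and Ctsl (cathepsin L) with 0.18 (adjusted p = 0.179). Trem2 had a log2 fold change of 0.35 (adjusted p = 0.110), and Apoe (the lipid carrier apolipoprotein E) 0.19 (adjusted p = 0.200). Markers of resting microglia had a median of 0.02 over 24 tested genes, with none called. Their summed level overlapped between the groups (1698 to 1889 CPM in WT, 1779 to 1872 CPM in KO and 1804 to 1856 CPM in MUT). Against WT replicate 1 alone, under 310 days, the median was 0.16 for the resting markers and 0.31 for the disease-associated program. With sex and age in the model these medians were 0.18 and 0.38. The resting median kept its sign in 26 of 31 other settings. In bulk tissue, more cells of a type and more RNA per cell cannot be told apart.

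The astrocyte gene Gfap lay just short of the threshold. Gfap (the intermediate filament of astrocytes, whose gene lies 0.46 Mb from Grn) measured 154, 81.7, 74.8 and 110 CPM in WT, 264, 193, 262 and 205 CPM in KO and 255, 249, 303 and 216 CPM in MUT. All null libraries were higher than all WT libraries, with WT replicate 1 the closest, and the pooled log2 fold change was 1.17 (SE 0.20, edgeR adjusted p = 0.06873). It passed the threshold with limma-voom (adjusted p = 0.03184) and when edgeR estimated the spread without its robust option (adjusted p = 0.04279). Of the 20 tested reactive astrocyte genes none was called in the pooled comparison, 3 were higher in all null libraries (Gfap, Ggta1 and Vim) and 1 was lower (S100a10), or 15% and 5% against 1.34% and 1.67% of all genes. Clu (clusterin, an inhibitor of complement made by astrocytes) had a log2 fold change of 0.16 (adjusted p = 0.0917), with WT replicate 1 the WT library closest to the null libraries. Of 19 complement genes only C4b was called. None of 20 general astrocyte markers was called, and none lay apart between null and WT libraries.

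Among the lysosomal genes themselves, Grn and Ctss were the 2 called of 66 tested, where 0.15% of all tested genes were called. The list's median was 0.04, and 8 members were higher and 4 lower in all null libraries than in all WT libraries, or 12.1% and 6.06%, against 1.34% and 1.67% of all genes. The median was 0.16 under 310 days and -0.01 without WT replicate 1. The 8 were Ctss, Cd68, Cd63, Ctsl, the proteases Ctsf (0.18) and Ctsa (0.15), the mannosidase Man2b1 (0.17) and the thioesterase Ppt1 (0.10). The 4 were Grn, the sulfatase Ids (-0.18), the proton pump subunit Atp6v1a (-0.07) and the phosphatase Acp2 (-0.05). Other than Grn and Ctss their adjusted p lay between 0.0809 and 0.411.

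Wdfy1 had the smallest p after Grn among the genes that moved alike. Its product carries a FYVE domain that binds the phosphoinositide of early endosomes. It measured 25.7, 22.0, 22.5 and 23.2 CPM in WT, 42.6, 43.2, 61.5 and 44.3 CPM in KO and 43.1, 64.2, 41.8 and 59.9 CPM in MUT. All null libraries were well above WT, and KO replicate 3 and MUT replicates 2 and 4 stood above the other 5. The pooled log2 fold change was 0.98 (SE 0.12, edgeR adjusted p = 0.02758), and it was 1.09 against WT replicate 1 alone among animals under 310 days. Wdfy1 was the 1 called gene of 38 tested endosomal sorting genes, whose median was -0.01. Over all tested genes 0.0458% were called higher.

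Apart from Grn, the 4 lowered genes with the largest changes were Pappa2, Htr2a, St6gal2 and Cnr1, and in all 4 WT replicate 1 was the WT library closest to the null libraries. Htr2a (the serotonin 2A receptor of cortical pyramidal neurons) measured 12.0 CPM in WT replicate 1 and 28.7, 29.8 and 28.1 CPM in WT replicates 2 to 4. The KO libraries measured 8.25, 6.97, 9.04 and 6.48 CPM and the MUT libraries 7.25, 10.4, 9.40 and 9.18 CPM. The null libraries lay just below the 287-day WT library and far below the 375-day ones. The log2 fold change was -1.37 (SE 0.21, edgeR adjusted p = 0.04774) in the pooled comparison, -0.53 among animals under 310 days and -0.92 with the striatal marker level in the model.

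Pappa2 (a protease that frees insulin-like growth factors from their binding proteins) measured 2.09, 4.95, 4.15 and 5.79 CPM in WT, 1.47, 0.944, 0.610 and 0.670 CPM in KO, and 0.725, 1.27, 0.745 and 1.03 CPM in MUT. Its pooled log2 fold change was -1.87 (SE 0.26, edgeR adjusted p = 0.03365), and -1.29 under 310 days. St6gal2 (a sialyltransferase of the brain) measured 8.36, 12.6, 12.5 and 13.9 CPM in WT, 4.78, 5.61, 6.04 and 5.81 CPM in KO, and 6.24, 6.61, 7.57 and 6.81 CPM in MUT. Here too the groups did not overlap, the 287-day WT library was the lowest of WT, and the pooled value of -0.86 (SE 0.13, adjusted p = 0.0381) went to -0.44 under 310 days. Cnr1 (the CB1 cannabinoid receptor, found on the terminals of interneurons) measured 176, 209, 230 and 263 CPM in WT, 153, 145, 141 and 151 CPM in KO, and 130, 155, 169 and 150 CPM in MUT. Its log2 fold change was -0.47 (SE 0.08, adjusted p = 0.04875) and -0.28 under 310 days. With the striatal marker level in the model it was -0.30 (adjusted p = 0.4523). The WT values of Cnr1 rose in the same order as the striatal marker sums (1011, 1818, 2696 and 4423 CPM). Whether striatal content accounts for them was not tested.

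The other 10 lowered genes apart from Grn changed by less than 1.5-fold. Hmgcs1 (HMG-CoA synthase, an early enzyme of cholesterol synthesis) measured 358, 382, 355 and 360 CPM in WT, 307, 306, 290 and 299 CPM in KO, and 302, 314, 307 and 315 CPM in MUT. The highest null library lay below the lowest WT library, WT replicate 1 was not the nearest, and the log2 fold change of -0.24 (SE 0.04, edgeR adjusted p = 0.03881) was also -0.24 under 310 days. Pdpk1 (the kinase that activates Akt) measured 172, 173, 167 and 185 CPM in WT, 142, 139, 134 and 146 CPM in KO, and 150, 159, 156 and 152 CPM in MUT. Its change was -0.24 (SE 0.04, adjusted p = 0.04774) and -0.23 under 310 days. Etl4 (also called Skt, a coiled-coil protein) was 174 ± 2.10 CPM in WT and 151 ± 5.06 CPM in the null libraries (SD, n = 4 and n = 8), a change of -0.22. In these 3 genes the 287-day WT library lay within the range of the 375-day ones.

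Znrf3 (a ubiquitin ligase that removes Wnt receptors) was 18.3 ± 1.16 CPM in WT and 14.0 ± 0.731 CPM in the null libraries, with a log2 fold change of -0.41. Coa3 (an assembly factor of cytochrome c oxidase) was 49.7 ± 2.77 against 38.6 ± 2.97 CPM, a change of -0.34. Ptprf (the receptor phosphatase LAR) was 115 ± 6.17 against 93.5 ± 5.91 CPM, a change of -0.29. Slc2a13 (a myo-inositol transporter) was 195 ± 19.8 against 151 ± 11.2 CPM, a change of -0.30, and its WT replicate 1 stood at 165 CPM while the other WT libraries stood at 202 to 209 CPM. Aff3 (a nuclear protein of the AF4 family) was 70.0 ± 9.04 against 52.0 ± 2.69 CPM, a change of -0.36 that went to -0.16 under 310 days. Tmem56 (listed as Tlcd4 in RefSeq, a membrane protein) was 97.0 ± 5.12 against 79.4 ± 5.14 CPM, a change of -0.27, and Col19a1 (a collagen made by some interneurons) was 40.5 ± 1.02 against 32.9 ± 3.40 CPM, a change of -0.29. These are means ± SD over 4 WT and 8 null libraries, and edgeR adjusted p for all 7 lay between 0.04309 and 0.04875. Over the 22 genes, WT replicate 1 was the WT library nearest to the null libraries in 11: Wdfy1 among those that rose, and Pappa2, Htr2a, St6gal2, Cnr1, Coa3, Ptprf, Tmem56, Aff3, Col19a1 and Slc2a13 among those that fell.

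Hmgcs1 was the 1 gene called of 27 tested cholesterol synthesis genes, where 0.105% of all genes were called lower. In both lines 21 of the 27 were below 0 and 3 above 0, and the median was -0.09 against 0.004 for all genes. Over all 15298 tested genes, 5698 were below 0 in both lines and 6050 above 0. In 5 of the 27 (18.5%) all null libraries were lower than all WT libraries, against 1.67% of all genes. Among them, Srebf2 (the transcription factor of the pathway) had -0.18 (adjusted p = 0.101) and Idi1 (an isomerase of the pathway) -0.39 (adjusted p = 0.133). The summed level of the list was 1961 to 2058 CPM in WT, 1798 to 1827 CPM in KO and 1764 to 1842 CPM in MUT, so the groups did not overlap and WT replicate 1 (1982 CPM) lay among the other WT libraries.

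Of 37 tested genes of the presynaptic terminal none was called and 7 had a pooled value above 0, against 7850 of 15298 over all genes. The median was -0.12 (-0.12 in KO, -0.11 in MUT), and 8 (21.6%, against 1.67% of all genes) were lower in all null libraries, among them the active zone scaffolds Rimbp2 (-0.30), Rims1 (-0.33) and Bsn (-0.24). Their summed level was 20728, 22413, 22936 and 20884 CPM in WT and 19224 to 20594 CPM in the null libraries, so WT replicate 1 was the WT library closest to the null libraries. GABA-A receptor subunits (12 tested, median -0.17) summed lower in every null library, with Gabra3 as the 1 member apart (8.33%, against 1.67% of all genes). But WT replicate 1 (1777 CPM) lay next to the highest null library (1775 CPM) and the other WT libraries at 1915 to 1973 CPM. That median was -0.09 under 310 days and -0.09 with the striatal level in the model. Of 27 tested genes of the Akt and mTOR pathway, Pdpk1 was the only one called, and Foxo3 (a transcription factor that Akt inactivates) had a log2 fold change of -0.38 (edgeR adjusted p = 0.0618). Cytosolic ribosomal protein genes had a median of 0.12 over 77 tested (0.17 in KO, 0.07 in MUT), with none called and 10 (13%) higher in all null libraries, against 1.34% of all genes. The median was 0.05 under 310 days and 0.07 with the trend on gene length removed. Their sums in WT replicate 1 (6818 CPM) and in the MUT libraries (6757 to 6918 CPM) overlapped.

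**Figure D2:**
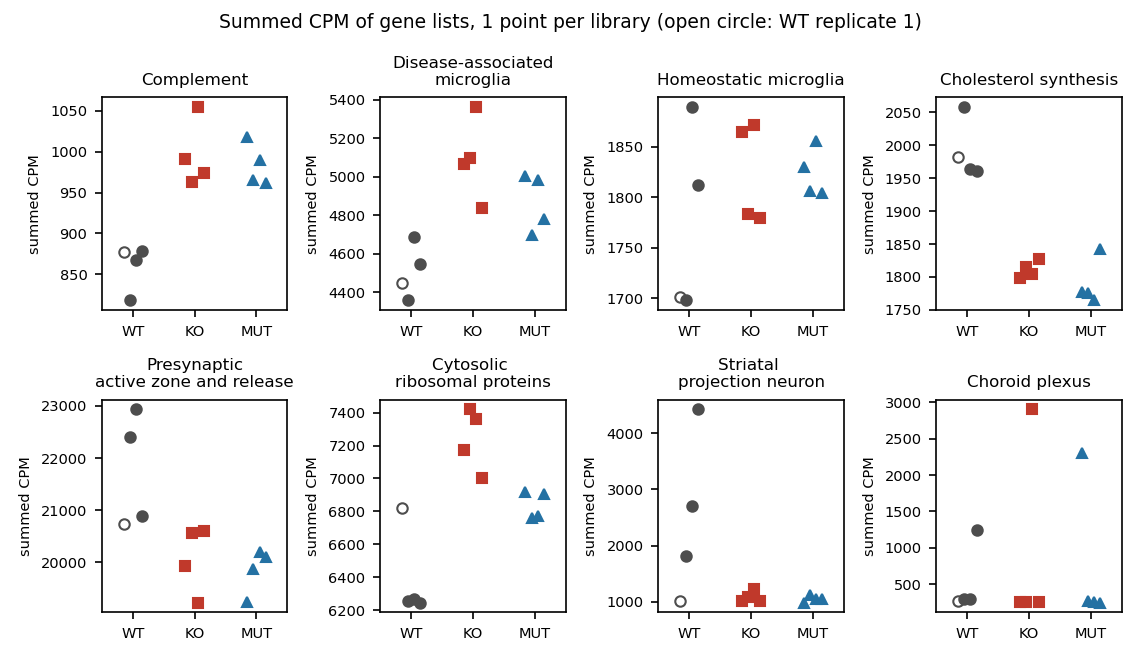
Summed CPM of 8 gene lists in each library, with a separate vertical scale per panel that does not start at 0. Complement and disease-associated microglial sums were higher in all 8 null libraries than in WT, and cholesterol synthesis and presynaptic sums lower. The disease-associated sums nearly touched (4688 CPM in WT replicate 3, 4700 CPM in MUT replicate 2). Resting microglial and ribosomal protein sums overlapped. Striatal markers were high in WT replicates 2 to 4, and choroid plexus markers were high in 1 library of each group.

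Over 37 gene lists, the 8 null sums were all higher than the WT sums in 3 (disease-associated microglia, complement and reactive astrocyte), all lower in 3 (cholesterol synthesis, GABA-A receptor and presynaptic) and overlapping in 31. When the members whose null libraries each lay apart were taken out of these 6 sums (a check chosen after seeing the data), 5 of the 6 overlapped: the reactive astrocyte sum without its 4 such members, Gfap among them, was 124 to 143 CPM in WT and 122 to 154 CPM in the null libraries, and the complement sum without C4b and Clu was 174 to 216 CPM and 201 to 234 CPM. The GABA-A receptor sum without Gabra3 was 1627 to 1800 CPM in WT and 1504 to 1626 CPM in the null libraries. Members were taken out for lying apart in these same libraries, so overlap of the rest was likely from the start. The check therefore cannot show whether a list's shift rests on a few members. The reactive astrocyte sum was 270 to 332 CPM in WT, 370 to 467 CPM in KO and 400 to 504 CPM in MUT. The disease-associated microglial sum nearly touched between groups, at 4357 to 4688 CPM in WT, 4839 to 5363 CPM in KO and 4700 to 5004 CPM in MUT. The striatal list, at -1.35, had the lowest median, with all 21 members below 0 in both lines and none called, and its sign turned to 0.20 among animals under 310 days. Hippocampal neuron markers had a median of 0.85, which turned to -0.12 under 310 days and was 0.02 with the striatal level in the model. Myelin genes had a median of 0.19 (0.33 under 310 days). None of the 17 hippocampal and none of the 30 myelin genes was called.

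Within the 22 genes, KO and MUT were close but not in every case equal. The difference between MUT and KO had a 95% interval (not adjusted over genes) that spanned 0 in 15 of them, including all 7 that rose. For Grn the difference was 0.06 on the log2 scale (interval -0.14 to 0.26), for Lyz2 0.12 (-0.32 to 0.57), for Tyrobp 0.04 (-0.18 to 0.27) and for C4b -0.09 (-0.42 to 0.25), so a difference of up to about 0.5 could not be seen for Lyz2. In the other 7, all lowered genes, the interval left out 0. The fall was deeper in KO for Col19a1 (30.1 ± 2.21 CPM in KO, 35.7 ± 1.04 CPM in MUT), Pdpk1, Tmem56, Slc2a13 and St6gal2. The fall was deeper in MUT for Coa3 (40.6 ± 2.79 CPM in KO, 36.5 ± 1.24 CPM in MUT) and Ptprf. None of the 22 passed an adjusted p of 0.05 for MUT against KO over all genes. Tested 1 line at a time, KO against WT called 75 genes (0.49%) and MUT against WT 2 genes (0.0131%), and Grn was the 1 gene called in both, so for the other 21 the joint movement rests on the pooled test and on an unadjusted p in each line.

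**Figure D3:**
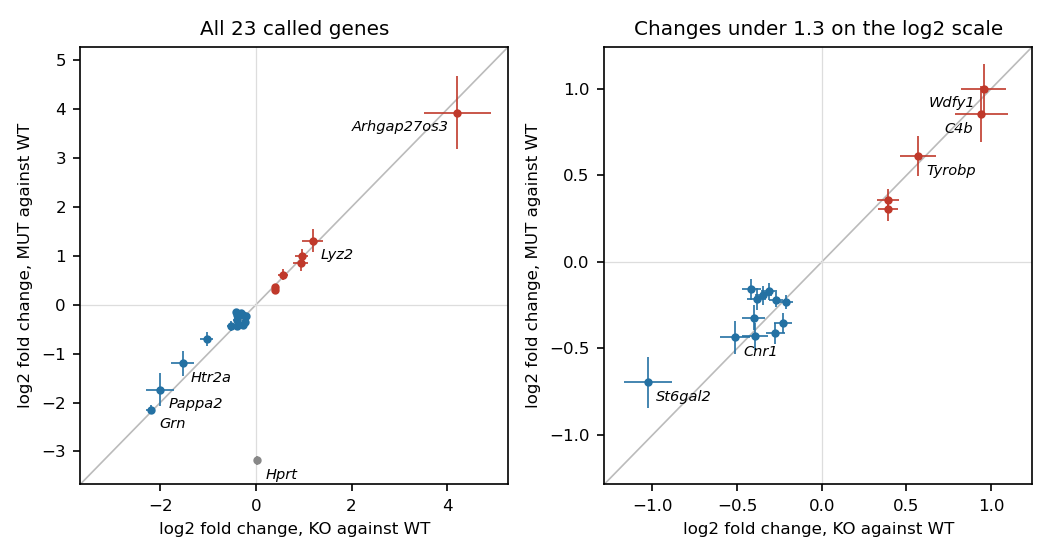
Log2 fold change against WT in KO (horizontal) and in MUT (vertical) for the called genes, with bars of 1 SE; the left panel shows all 23 and the right panel those under 1.3 on the log2 scale. Both axes use the same 4 WT libraries. Red genes rose and blue genes fell alike and lie near the diagonal, while Hprt (grey) was at 0.03 in KO and -3.18 in MUT.

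Hprt was the 1 called gene that did not move alike. Hprt (an X-linked enzyme of purine salvage, often used as a site for single-copy transgenes and as a reference gene) measured 125, 127, 132 and 123 CPM in WT, 133, 136, 131 and 120 CPM in KO, and 14.2, 13.8, 11.6 and 17.0 CPM in MUT. KO overlapped WT and every MUT library was far below both. The pooled log2 fold change of -1.58 is therefore the average of 0.03 in KO and -3.18 in MUT, and MUT minus KO was -3.21 (95% interval -3.40 to -3.01, edgeR adjusted p = 7.19e-10). No other gene passed the threshold for that difference (0.00654% of genes called).

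Some of the 22 genes are neighbours of Grn on chromosome 11. Within 10 Mb of its start 288 genes were tested (1.88% of all), and 4 of the 22 lay there: Grn, Coa3 at -1.15 Mb, Acbd4 at 0.67 Mb and Arhgap27os3 at 0.91 Mb. In 19 of the 288 (6.6%) the null and WT libraries lay apart, against 3.02% of 961 genes on the rest of the chromosome and 2.93% on other chromosomes. Acbd4 (a protein that tethers peroxisomes to the endoplasmic reticulum) measured 30.7, 28.1, 31.6 and 27.6 CPM in WT, 37.5, 39.4, 41.8 and 36.8 CPM in KO, and 39.9, 37.1, 39.0 and 36.2 CPM in MUT. The change was 0.37 (SE 0.06, edgeR adjusted p = 0.04309) with no overlap, and 0.33 under 310 days. Whether the null lines carry flanking sequence of another strain around the Grn deletion is not given in the sources used here and was not tested.

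Arhgap27os3, a noncoding RNA gene named for lying opposite Arhgap27, went from almost no reads to a low level. It had 0, 0, 2 and 0 reads in WT replicates 1 to 4, 7, 12, 14 and 12 reads in KO and 8, 7, 13 and 8 reads in MUT. All 8 null libraries had reads and 1 WT library did. The null libraries held 81 reads in all against 2 in WT, and scaled for depth the ratio was 20.1 with a 95% counting interval of 5.38 to 169. The fitted log2 fold change of 4.07 (SE 0.68, adjusted p = 0.04774) depends on the small count added to the empty libraries. Without a stated strand setting, reads of the gene on the opposite strand cannot be told apart from its own. Arhgap27 itself measured 17.0 to 22.4 CPM in WT and 11.7 to 17.1 CPM in the null libraries, so the groups overlapped slightly, and its log2 fold change was -0.57 (adjusted p = 0.0783), the opposite sign to that of Arhgap27os3. Among the neighbours that were apart but not called, Meox1 (a homeobox factor, -0.55 Mb) had a log2 fold change of 1.46 (adjusted p = 0.0635) at 0.369 ± 0.139 CPM in WT, Gfap is given above, and Adam11 (0.33 Mb) had 0.43 (adjusted p = 0.0595). The WT library nearest to the null libraries was replicate 1 for Adam11 (251 CPM) and replicate 2 for Meox1.

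**Figure D4:**
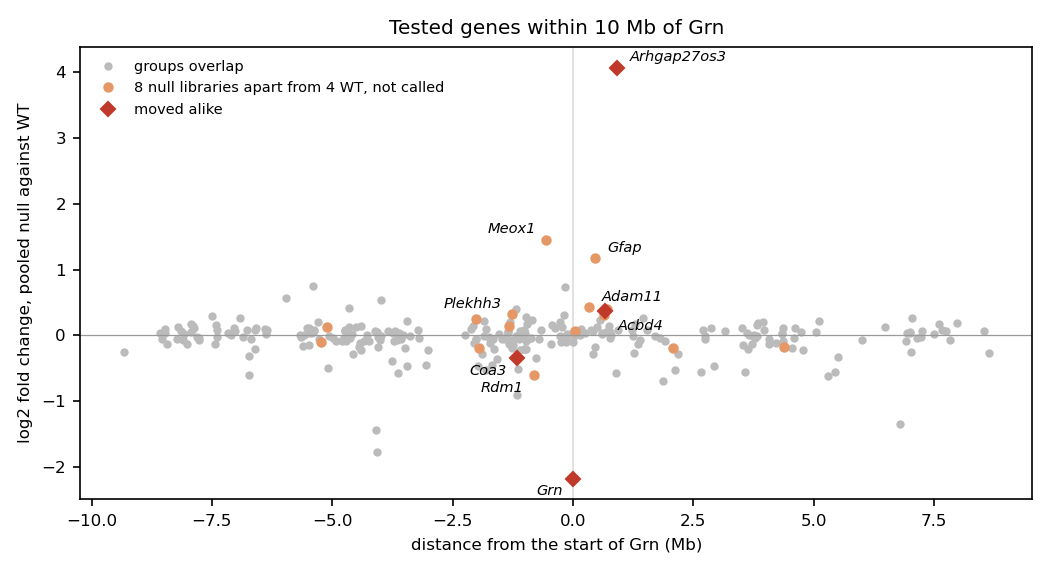
Pooled log2 fold change of the 288 tested genes within 10 Mb of Grn against their distance from its start. Diamonds mark the 4 genes that moved alike, orange points the 15 others whose null libraries all lay on 1 side of WT, and grey points the rest. The marked genes with the largest shifts (Grn, Arhgap27os3, Meox1 and Gfap) lie near the centre.

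Sequence before the start of these genes was examined for exact matches of 4 motifs tied to the themes above. They were CACGTG, the core of the element that the lysosomal factor TFEB binds, and its extended form GTCACGTG. Each match of GTCACGTG is also a match of CACGTG. The others were GAGGAAGT, a form of the site that the microglial factor PU.1 binds, and the sterol response element in its 10-letter form. The RefSeq table of the GRCm38.p6 assembly held windows of 250 bases for 17 of the 22 genes. Searched on both strands, CACGTG was present for 4 of 14 lowered genes with a window (Coa3, Tmem56, Etl4 and Cnr1) and for none of the 3 raised ones, against 9.56% of 11792 tested genes. A gene counted if any of its windows matched, and Tmem56, Etl4 and Cnr1 had several windows. The 14 lowered genes had 20 windows and the 11792 tested genes 15076. The other 3 motifs had no exact match in any of the 17. Sites a letter away from these forms, such as ctcaccccac before Hmgcs1 and acttcctg (read on the reverse strand) before Lyz2, were not counted. The share over so few genes is a description only. For 2 lowered genes with the motif and the 2 raised microglial genes with a window the sequence is printed, so that the letters behind these counts can be read. Each runs 5′ to 3′ on the strand of its gene and ends at the base before the start, with CACGTG in capitals.
Coa3, chr11:101278949-101279198, minus strand: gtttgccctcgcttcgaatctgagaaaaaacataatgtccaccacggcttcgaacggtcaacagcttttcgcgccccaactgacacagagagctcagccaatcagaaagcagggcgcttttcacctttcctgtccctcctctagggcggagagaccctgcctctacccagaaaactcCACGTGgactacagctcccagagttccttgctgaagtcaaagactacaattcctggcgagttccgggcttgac
Tmem56, chr3:121263341-121263590, minus strand: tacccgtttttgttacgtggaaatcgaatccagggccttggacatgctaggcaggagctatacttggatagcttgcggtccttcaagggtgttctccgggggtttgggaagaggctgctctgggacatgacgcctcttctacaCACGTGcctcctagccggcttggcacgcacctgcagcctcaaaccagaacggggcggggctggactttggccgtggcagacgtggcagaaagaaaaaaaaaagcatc
Ctss, chr3:95526536-95526785, plus strand: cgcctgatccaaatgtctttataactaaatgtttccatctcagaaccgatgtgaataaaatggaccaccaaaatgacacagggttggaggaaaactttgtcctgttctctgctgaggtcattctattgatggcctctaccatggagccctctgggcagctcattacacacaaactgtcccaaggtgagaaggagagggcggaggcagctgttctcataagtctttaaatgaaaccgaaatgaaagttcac
Lyz2, chr10:117282273-117282522, minus strand: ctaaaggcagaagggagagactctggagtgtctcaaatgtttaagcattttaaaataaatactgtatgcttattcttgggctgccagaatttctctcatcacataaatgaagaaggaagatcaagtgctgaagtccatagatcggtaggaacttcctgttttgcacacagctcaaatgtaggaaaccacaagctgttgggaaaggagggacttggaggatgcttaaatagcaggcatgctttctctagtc
In Coa3 the motif begins 73 bases before the start and in Tmem56 107 bases before it. Neither the Ctss nor the Lyz2 window holds an exact match to any of the 4 motifs. A match shows only that the letters are there.

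Across 31 other settings of model, scaling, filter and library choice, no called gene changed sign in a setting that tested it, while calls were lost in many. The settings refit the same libraries, and in the 22 genes that moved alike the null and WT libraries already lay apart. A kept sign was therefore likely from the start. The number that moved alike was 470 by DESeq2, 17 by limma-voom, 535 with no sex term and 2 with age added to the model. Grn was called in 31 of 31 and Wdfy1 in 19 of 31, and the other 20 genes that moved alike in 7 to 17. Under 310 days, where WT replicate 1 is the only WT library, Grn and Hprt stayed called and the other 21 did not. Without the 3 libraries high in choroid plexus markers, Grn, Wdfy1 (adjusted p = 0.001619) and Ctss (adjusted p = 0.03992) were the ones still called of the 22.

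**Figure D5:**
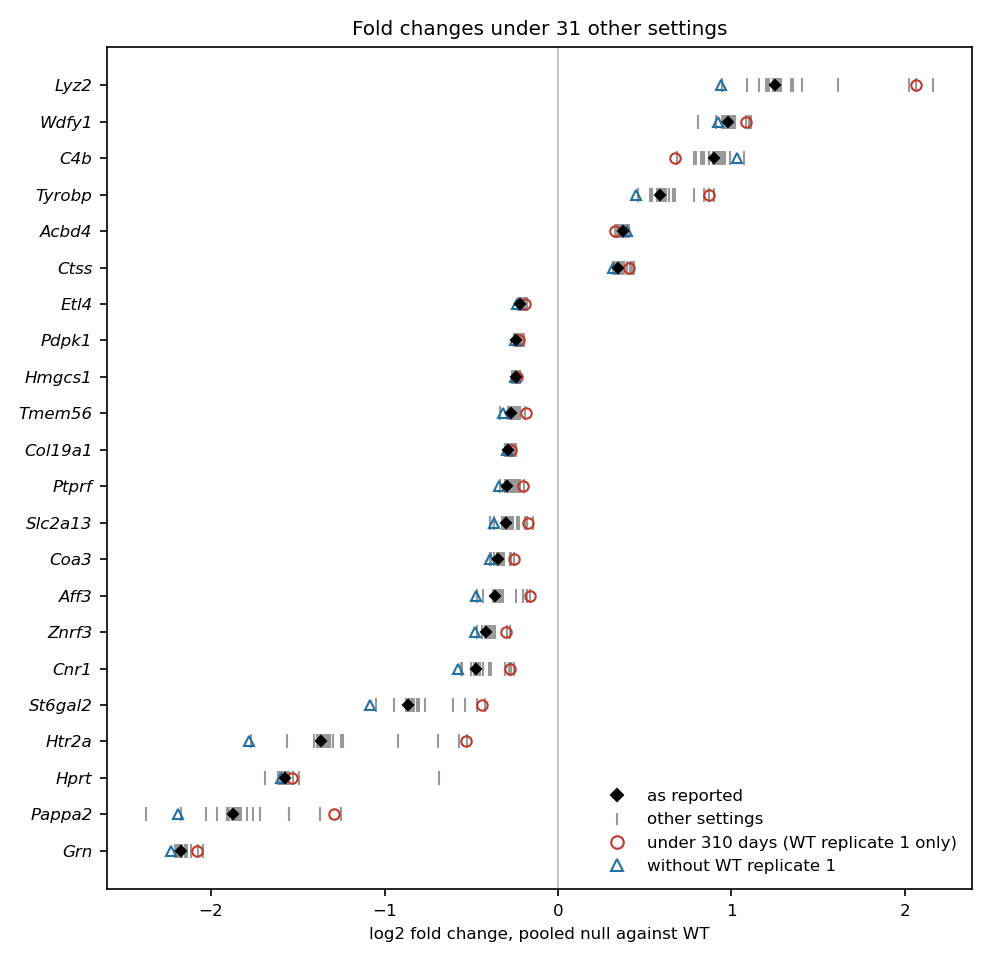
Pooled log2 fold change of 22 called genes as reported (diamond) and under 31 other settings (ticks), with the animals under 310 days as open circles and the fit without WT replicate 1 as open triangles. No value crosses 0; for Htr2a, Pappa2, St6gal2, Aff3 and Cnr1 the circle lies nearer to 0 than the reported value, while for Lyz2 and Tyrobp it lies farther from 0.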

How the data were processed

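RNA-seq of mouse cortex was analysed in 12 libraries. Per the labels, a directional kit was used. Raw read counts per gene, with Entrez IDs and exon coordinates and not normalized, are the values the authors deposited. The submitters' processing notes name mm10, R 4.1.2 and DESeq2 1.34.0, while aligner, read counter and strandedness setting were not given in the sources used here. Of 27179 genes, 1049 had no symbol and stayed in totals and tests.

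Groups came from the labels, which do not say that each library is a separate animal, so p measures the spread between libraries. Among 66 pairs of libraries the smallest chi-square divided by its degrees of freedom was 3.62, so none agreed within sampling noise. Genes were kept with filterByExpr (minimum count 10, minimum total 15), counts were scaled by TMM, and edgeR 4.0.16 (R 4.3.3) fitted group means and labelled sex in 1 robust quasi-likelihood model of all 12 libraries, leaving 8 residual degrees of freedom (common biological coefficient of variation 0.101). The contrast was the mean of KO and MUT minus WT, with Benjamini-Hochberg adjustment over 15298 genes and a threshold of 0.05. Age was kept out of the model because 3 WT animals and no other were 375 days old. Labelled sex, which is in the model, cannot be told apart from age within WT. CPM use TMM-scaled totals, and intervals of reads cover counting error only.

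The rule names Grn, then up to 15 raised and 15 lowered genes that moved alike with no overlap between null and WT libraries, up to 4 members per list and up to 5 called genes with the smallest p for MUT minus KO. Gfap, Pcdh7, the list members and the neighbours of Grn that did not pass were named after their values were seen. Some members of the lists are not reported here. The members, the 37 gene lists, the rule and the tests were chosen with earlier results of these data known. Promoter windows are from RefSeq (GRCm38.p6), which held none for Znrf3, Acbd4, Wdfy1, Tyrobp and C4b.

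On simulated counts of 15298 genes with 200 changed, edgeR found 50% of the genes that differed 1.3-fold in the pooled comparison, 74% of those that differed 1.5-fold, 96% of the 2-fold ones and 100% of the 4-fold ones, with 4 false calls among 164. DESeq2 1.42.0 made 19 false calls among 185 and limma-voom (limma 3.58.1) 3 among 164. The simulated libraries varied independently around 1 mean per gene, with the same change in KO and MUT. They held no shared difference of age, striatal or choroid plexus content, so these rates do not measure how reliable the calls in the real libraries are. Alternatives were other scalings, filters, tools, covariates and subsets of libraries, and 2 chosen after seeing the data: edgeR without its robust option, and list sums without the members that lay apart.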

Additional observations from a re-analysis of the deposited data

Results flagged for a closer look

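In 8 of 69 groups of 4 libraries, among the 23 called genes, 1 library stood away from the other 3 by Dixon's test, where chance gives about 1 in 20. Of these, 2 concern WT replicate 1. Htr2a measured 11.99 CPM there and 28.11 to 29.79 CPM in the other WT libraries, and Slc2a13 measured 165.3 CPM against 201.6 to 208.8 CPM. Arhgap27os3 measured 0.09882 CPM in WT replicate 3 and 0 in the other WT libraries. In KO, Wdfy1 measured 61.55 CPM in replicate 3 against 42.6 to 44.3 CPM in the others, and Etl4 161.5 CPM in replicate 4 against 146.8 to 149.2 CPM. In MUT, Aff3 measured 47.64 CPM in replicate 1 against 53.79 to 54.93 CPM, Coa3 34.65 CPM in replicate 2 against 37.08 to 37.21 CPM, and Tyrobp 10.74 CPM in replicate 2 against 11.46 to 11.61 CPM. Separately, Hprt differed between the null lines by a test of the difference itself, with a MUT minus KO log2 fold change of -3.205 (edgeR adjusted p = 7.192e-10).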

How the results depend on the processing

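The numbers called in the pooled comparison (23) and moving alike (22) depended strongly on the processing. They stayed within 1.5 times with RLE size factors, without a low-count filter, with at least 1 CPM in every library, with limma-voom and without the robust option. They were 7 and 6 with library size alone, 14 and 13 with each library's trend on gene length removed, 509 and 470 with DESeq2, 550 and 535 with no sex term, 3 and 2 with sex and age or with age alone, 4 and 3 with the striatal list level, 111 and 110 with the choroid plexus list level, 2 and 1 among libraries labelled female, 1284 and 1179 among those labelled male, 3 and 2 under 310 days, and 5 and 4 without WT replicate 4, MUT replicate 1 and KO replicate 3. The fits for libraries labelled female and for animals under 310 days hold WT replicate 1 as the only WT library, and the fit for those labelled male has 1 MUT library; the lone library is assumed to vary like the other groups. Leaving out 1 library at a time gave 2 to 1694 called and 1 to 1665 moving alike, the highest without WT replicate 1. In that fit and in the fit for libraries labelled male, every WT library was 375 days old and high in striatal markers. With KO and MUT as 1 group of 8, 17 genes were called, and moving alike could not be computed. At an unadjusted p under 0.05, 2531 genes changed in the pooled comparison. With the replicate number as a block the counts were 3 and 2. The numbers are only a shared label here: over 12 pairs of same-numbered libraries the correlations of their deviations from the group means ran from -0.377 to 0.289, and 2 libraries correlated best with their own number. No called gene changed sign in any setting that tested it, which was likely because the genes were picked from these same libraries. The cause of these shifts was not tested. At totals of 16381221 to 20782195 counts, genes with few reads such as Arhgap27os3 are known to within wide counting intervals only.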

Other observations

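Outside the genes named above, a few members of the other lists had all 8 null libraries on 1 side of the 4 WT libraries without passing the threshold. Of all tested genes, 1.34% were higher and 1.67% lower in all 8 null libraries. The clock genes Arntl (BMAL1) and Dbp had pooled log2 fold changes of -0.29 (edgeR adjusted p = 0.102) and 0.32 (adjusted p = 0.149). For Dbp, WT replicate 1 (84.6 CPM) nearly touched MUT replicate 2 (84.8 CPM). The median of the 17 tested clock genes was 0.10, and it was -0.0016 under 310 days. Ftl1 (ferritin light chain) had 0.19 (adjusted p = 0.0853). Among genes of frontotemporal dementia and ALS other than Grn, Cyld (a deubiquitinase) had -0.36 (adjusted p = 0.1001), Ubqln2 -0.14 (adjusted p = 0.102) and Optn 0.24 (adjusted p = 0.152). Irf8 (a transcription factor of microglia) had 0.40 (adjusted p = 0.0782), the 1 of 24 resting microglial markers that lay apart (4.17%). Of the 38 endosomal sorting genes, 2 were higher (Wdfy1 and Vps16) and 2 lower (Vps35 and Rab5b) in all null libraries, or 5.26% each. Vps35 (the core of retromer) had -0.13 (edgeR adjusted p = 0.104), Rab5b -0.08 (adjusted p = 0.286) and Vps16 0.09 (adjusted p = 0.274). WT replicate 1 was the WT library nearest to the null libraries for Arntl, Dbp, Ftl1, Cyld, Ubqln2, Optn and Vps35, and not for Irf8. Interferon-stimulated genes had a median of 0.26 over 27 tested (0.09 in KO, 0.29 in MUT), with none called and their summed level overlapping between the groups.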
